A study of Mus musculus with 28 samples.

Results

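Aquaporins are channel proteins of the cell membrane through which water passes along an osmotic gradient. Some of them, the aquaglyceroporins, also let glycerol and other small uncharged solutes through. In skin they are known for the hydration of the epidermis, for the release of glycerol from fat, and for water movement in vessels, glands and muscle. The genes described here are Aqp1, Aqp2, Aqp3, Aqp4, Aqp5, Aqp7 and Aqp9, 7 of the 29068 genes in the table. They were selected by name, and the selection also used the measured levels, because Aqp2 was listed as higher on every wound day than on day 0. Differences from day 0 are therefore given as a description without a test, and tests are kept to differences between the wound days.

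RNA was sequenced from the whole wound site on the back of mice after a full-thickness punch wound, with the scab and the epithelial margin included. There were 4 libraries on each of days 0, 3, 5, 7, 10, 12 and 14, 28 in all. All mice were 8 weeks old, C57BL/6J and MLKL+/+, all healed naturally, and the day of sampling was the difference between the groups. Day 0 is the name in the labels, which make it the control group, whereas the study's methods count the day of injury as the first day. The label text speaks of 5 repeats a day, and 4 were analysed here. The labels do not say which libraries came from separate mice, so p-values measure the spread between libraries.

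The libraries held 36706513 to 40655764 counts assigned to genes. Day 0 was the most variable group, with a common biological coefficient of variation of 26.4% against 5.70% to 10.8% on the wound days. Skin markers fitted the tissue label, since all 6 basal keratinocyte markers were found on every day and summed to between 2984 and 8098 CPM, the counts scaled to a common library size. Muscle, fat, vessel, nerve and blood cell markers were also present.

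Of the 7 aquaporins, Aqp1, Aqp2, Aqp4 and Aqp5 are known mainly as water channels, and Aqp3, Aqp7 and Aqp9 as aquaglyceroporins. This division can be read in the coding sequences. The stretches below surround the second of the boxes that line the pore, which reads Asn-Pro-Ala in Aqp1, Aqp2, Aqp3, Aqp5 and Aqp9 and Asn-Pro-Ser in Aqp7. The capitals mark the codon after the arginine that follows the box. It encoded serine in Aqp1, Aqp2, Aqp4 and Aqp5 and aspartate in Aqp3, Aqp7 and Aqp9, and the stretch of Aqp4 is not shown. The sequences come from the GENCODE transcripts of build GRCm38.
Aqp1: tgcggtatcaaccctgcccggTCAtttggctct
Aqp2: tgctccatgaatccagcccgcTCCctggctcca
Aqp5: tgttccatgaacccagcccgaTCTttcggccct
Aqp3: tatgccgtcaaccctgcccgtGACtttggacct
Aqp7: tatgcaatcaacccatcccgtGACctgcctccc
Aqp9: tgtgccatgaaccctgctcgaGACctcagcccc

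The most alike pair was Aqp2 and Aqp5, with 66.5% identical positions over their aligned coding sequences. The stretch with their longest shared run, which had 51 of 60 bases in common, shows how far reads from them can be told apart. The capitals mark the 17 bases that are identical without a break.
Aqp2: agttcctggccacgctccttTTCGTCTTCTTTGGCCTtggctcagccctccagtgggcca
Aqp5: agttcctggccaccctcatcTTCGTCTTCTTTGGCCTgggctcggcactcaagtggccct
No pair of the 7 genes shared a run of 25 bases in the transcripts compared, 1 per gene, and the longest run of any pair was 20 bases.

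On the per-length scale (FPKM, which divides a gene's count by its length and by the library total), Aqp1 had the highest level on each of the 7 days, and Aqp3 the next highest. Aqp1 made up 63.0% of the summed FPKM of the 7 genes on day 3 and 72.7% on day 0. Aqp2 was the lowest on 6 of the 7 days, and Aqp5 was the lowest on day 3. In that order Aqp1 and Aqp3 did not overlap each other or the next gene on any day. Further down, neighbours whose libraries overlapped were Aqp4 with Aqp7 and Aqp7 with Aqp9 on day 0, Aqp2 with both Aqp4 and Aqp5 on day 3, and Aqp5 with both Aqp4 and Aqp2 on day 5. On day 7 they were Aqp5 with Aqp9 and Aqp4 with Aqp2, on day 12 Aqp4 with both Aqp9 and Aqp5, and on day 14 Aqp4 with Aqp9 and Aqp5 with Aqp2. No neighbours overlapped on day 10.

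**Figure D1:**
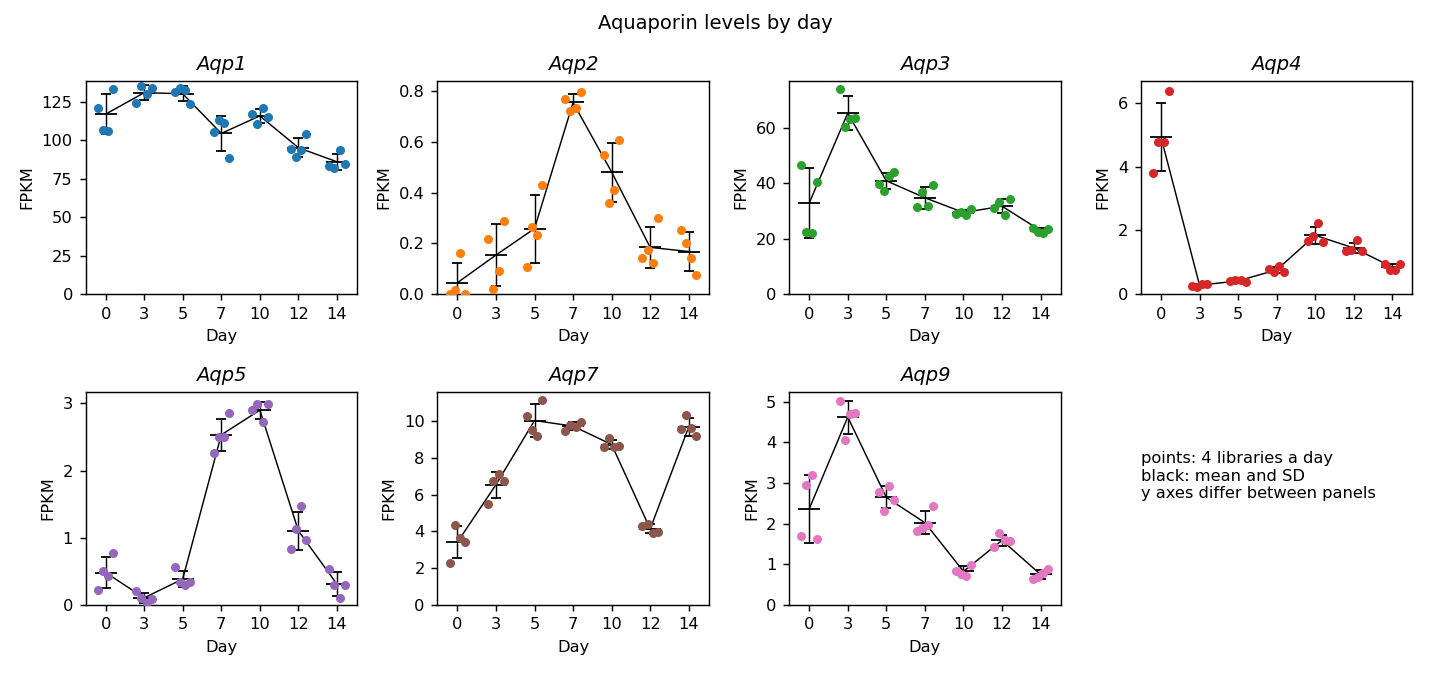
FPKM (y axis, a separate scale in each panel) of the 7 aquaporin genes by day of sampling (x axis, days drawn at equal spacing). Coloured points are single libraries, 4 a day, and black marks are the mean with the SD, cut at 0. Aqp2 and Aqp5 were high on days 7 and 10, Aqp3 and Aqp9 were highest on day 3, Aqp4 was highest on day 0, and Aqp7 was lower on day 12 than on the wound days around it.

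Each of the 7 genes passed the low count filter, so all 7 were tested among 18107 genes with edgeR's quasi-likelihood test, and a call means a Benjamini-Hochberg adjusted p under 0.05. All 7 differed among the 6 wound days in the joint test, with adjusted p from 2.4e-14 for Aqp4 to 0.00063 for Aqp2. That test called 85.1% of all genes tested, so 7 of 7 is close to the share over all genes. Between days 3 and 5, 3 of the 7 were called higher (Aqp4, Aqp5 and Aqp7; 12.9% of all genes) and 2 lower (Aqp3 and Aqp9; 11.4% of all genes). Between days 5 and 7, Aqp2, Aqp4 and Aqp5 were called higher, against 13.9% of all genes, and Aqp1 and Aqp9 lower, against 14.6%. Between days 7 and 10 the only calls were Aqp4 higher and Aqp9 lower, where 14.3% of all genes were higher and 18.0% lower. Between days 10 and 12, Aqp9 was called higher and 5 genes lower (Aqp1, Aqp2, Aqp4, Aqp5 and Aqp7), where 18.7% of all genes were higher and 20.7% lower. Between days 12 and 14, Aqp7 was called higher and 4 genes lower (Aqp3, Aqp4, Aqp5 and Aqp9), where 19.9% of all genes were higher and 25.3% lower. Over the whole interval from day 3 to day 14, 3 were called higher (Aqp4, Aqp5 and Aqp7; 34.2% of all genes) and 3 lower (Aqp1, Aqp3 and Aqp9; 32.8% of all genes).

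Across these comparisons the median log2 fold change of the 7 genes ran from -0.45 on day 14 against day 12 to 0.56 on day 5 against day 3. The median of all genes tested lay between -0.04 and 0.04 in each of them. Against day 0, which the selection used, no calls are counted.

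**Figure D2:**
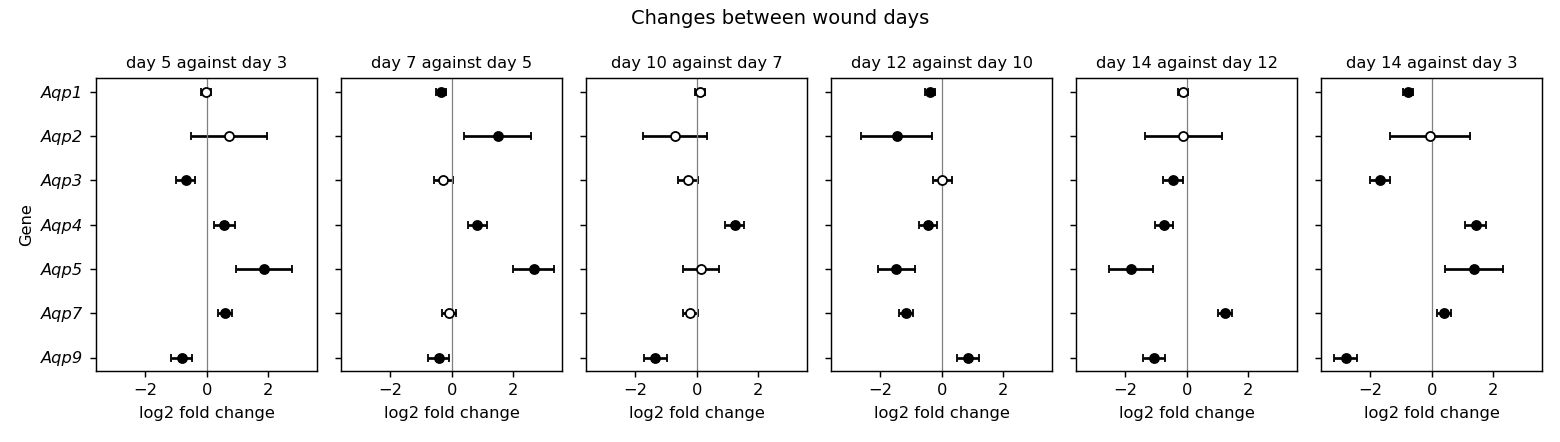
Fitted log2 fold change (x axis) of each aquaporin gene (y axis) between wound days, 4 libraries a day, with its 95% confidence interval. Filled points have an adjusted p under 0.05 (edgeR, Benjamini-Hochberg). The largest rise between neighbouring days was that of Aqp5 from day 5 to day 7, and the intervals of Aqp2 were the widest in all 6 comparisons.

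Aqp2 is the water channel of the kidney collecting duct, where vasopressin moves it to the cell surface through cyclic AMP. Its counts were low throughout. The 4 day 0 libraries held 0, 1, 9 and 0 counts, so 9 of the 10 counts came from replicate 3. Day 3 had 12, 1, 5 and 16 counts, and day 5 had 6, 15, 13 and 24. Day 7 reached 43, 41, 42 and 45, the highest and the most even counts of any day. Day 10 had 30, 20, 23 and 34 counts, day 12 had 8, 10, 7 and 17, and day 14 had 14, 11, 8 and 4. In CPM, which uses the TMM factors of edgeR, all 4 libraries lay above the highest day 0 library on days 7 and 10, but only 2, 3, 1 and 2 of 4 did so on days 3, 5, 12 and 14. In FPKM 2 of the 4 day 12 libraries did so.

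The mean level of Aqp2 was 0.0448 ± 0.0784 FPKM (SD, n = 4) on day 0 and 0.756 ± 0.0351 FPKM (n = 4) on day 7. In mean CPM the wound days stood at 3.59, 5.97, 16.9, 10.4, 3.73 and 3.45 times day 0, in the order of days 3, 5, 7, 10, 12 and 14. The size of these ratios rests on day 0 replicate 3. Without it the other day 0 libraries held 1 count in all, and against a floor of 3 counts per library Aqp2 was at least 2.92-fold, 4.85-fold, 13.7-fold, 8.44-fold, 3.04-fold and 2.80-fold higher in the same order. The floors cover counting error only.

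Between wound days, which the selection did not use, Aqp2 rose 2.82-fold from day 5 to day 7 (SE 0.53 on the log2 scale, edgeR adjusted p = 0.033), and the 4 libraries of day 7 all lay above those of day 5. From day 10 to day 12 it fell by 1.46 on the log2 scale (SE 0.56, edgeR adjusted p = 0.037), again with no overlap. The exact two-sided permutation test on log2 CPM gave p = 0.0286 for both, the smallest that 4 against 4 libraries allow. The step from day 7 to day 10 had the same exact p and no overlap, so these do not set the 2 calls apart. Its log2 difference was -0.7 (SE 0.50), not called by edgeR (adjusted p = 0.31) but called by limma on log2(FPKM + 1) (adjusted p = 0.024). The edgeR calls for day 5 to day 7 and for day 10 to day 12 were near the threshold. The first was lost in 7 of the 8 fits that left out 1 library of the 2 days, namely any but day 5 replicate 4, with an adjusted p of up to 0.11. The second was lost without day 10 replicate 1, 3 or 4 or day 12 replicate 1, 2 or 3, with an adjusted p of up to 0.10. It was also lost without the low count filter (edgeR adjusted p = 0.050) and with Xist as a covariate (0.089). Xist was nearly constant over the libraries, so the fit with it says little. Days 3 and 14 could not be separated, with a log2 difference of -0.06 and a 95% interval from -1.35 to 1.24.

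Aqp5, a water channel of the apical membrane in sweat, salivary and lacrimal glands, lies directly downstream of Aqp2. Aqp2 occupies chr15:99579055-99584547 and Aqp5 chr15:99590782-99594829 in GRCm38, both on the plus strand, with 6234 bases between them and no annotated gene in that gap. Faim2 lies 50889 bases before Aqp2, and Aqp6 and Racgap1 follow Aqp5. Its day 0 libraries held 13, 32, 26 and 44 counts, those of day 3 held 12, 6, 2 and 5, and those of day 5 held 35, 21, 18 and 21. Day 7 stood at 139, 156, 157 and 176 counts, and day 10 at 174, 183, 167 and 183. Day 12 had 52, 71, 93 and 60 counts, and day 14 had 32, 18, 6 and 18. The day 7 and day 10 libraries overlapped each other and lay above all others.

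Aqp5 rose by 1.86 on the log2 scale from day 3 to day 5 (SE 0.44, edgeR adjusted p = 0.0022) and by 2.67 from day 5 to day 7 (SE 0.32, edgeR adjusted p = 2.6e-07). It then fell by 1.49 from day 10 to day 12 (SE 0.29, edgeR adjusted p = 0.00017) and by 1.82 from day 12 to day 14 (SE 0.34, edgeR adjusted p = 8.5e-05). Day 14 was above day 3 by 1.37 (SE 0.45, edgeR adjusted p = 0.0093), but the 2 days overlapped, the exact permutation p was 0.0857, and the adjusted p was 0.072 without day 14 replicate 1 and 0.069 with limma on log2(FPKM + 1). The log2 differences of Aqp5 from day 0, given without a test, were -2.14 for day 3, 2.39 for day 7 and 2.54 for day 10. Its mean FPKM on days 3, 5 and 14 was below that of day 0, with overlapping libraries on days 5 and 14.

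The share of Aqp2 in the summed counts of the 2 neighbours was 8% on day 0 (exact 95% binomial interval 3.90% to 14.2%) and 57.6% on day 3 (44.1% to 70.4%). Day 5 had 37.9% (30.2% to 46.1%), day 7 had 21.4% (18.6% to 24.4%), day 10 had 13.1% (10.9% to 15.7%), day 12 had 13.2% (9.69% to 17.4%) and day 14 had 33.3% (24.7% to 42.9%). These intervals cover counting error over the pooled counts of a day. The day 0 share was 1.11% without replicate 3 (0.0281% to 6.04%) and 12.3% without replicate 4 (6.08% to 21.5%), and single day 0 libraries ran from 0% to 25.7%. Single libraries ran from 14.3% to 76.2% on day 3, but only from 20.4% to 23.6% on day 7, so the share was most even where the counts of both genes were high. The log2 CPM of both genes had r = 0.688 over the 24 wound libraries and 0.566 over all 28, and the libraries of a day share that day.

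**Figure D3:**
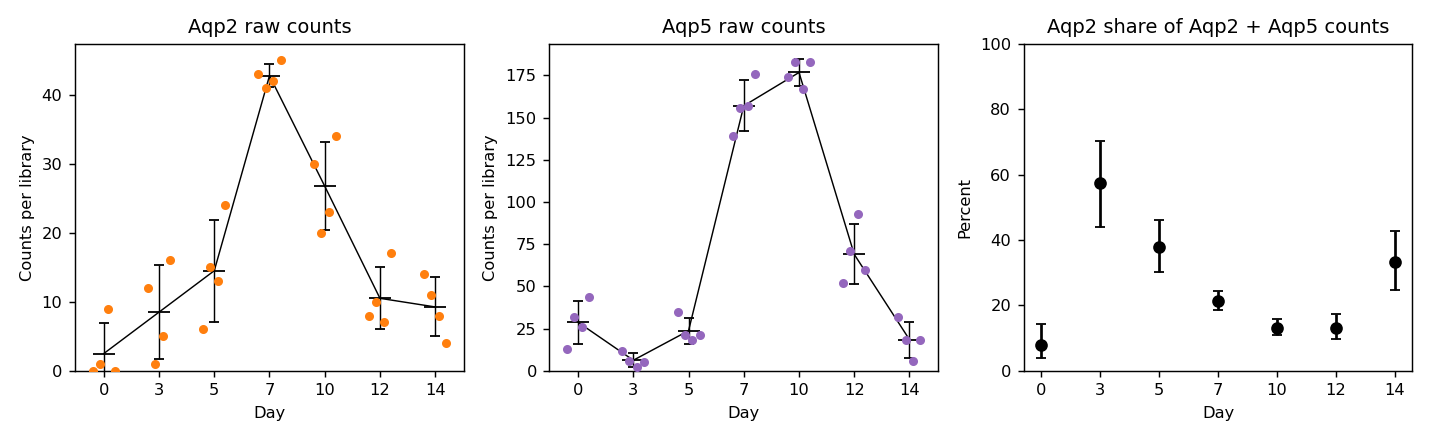
Raw counts per library (y axis) of Aqp2 and Aqp5 by day (x axis, days at equal spacing), with the mean and SD of 4 libraries in black, cut at 0, and the percent of Aqp2 in the summed counts of both genes with its exact 95% binomial interval. Aqp2 peaked on day 7 at 41 to 45 counts and Aqp5 stood at 139 to 183 counts on days 7 and 10, while the share of Aqp2 went from 57.6% on day 3 to 13.1% on day 10.

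In the RefSeq table of start regions for GRCm38.p6, the 249 bases before the start of Aqp2 are chr15:99578806-99579054 on the plus strand. They are shown because Aqp2 is a known target of cyclic AMP response elements. Both strands were searched for TGACGT, the core of that element, for GATAA, the site of GATA factors, and for the TATA box (TATAAA), the CCAAT box, the AP-1 site (TGANTCA) and the GC box (GGGCGG). The first capitals are TGACGT read on the other strand, which 6.44% of 32817 start regions of this length hold, and the others are GATAA on the other strand, which 22.5% hold.
Aqp2: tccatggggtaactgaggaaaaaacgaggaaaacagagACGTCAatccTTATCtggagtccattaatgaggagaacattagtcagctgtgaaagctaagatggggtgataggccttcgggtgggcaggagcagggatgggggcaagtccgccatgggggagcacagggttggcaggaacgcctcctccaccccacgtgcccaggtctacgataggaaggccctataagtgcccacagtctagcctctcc
The other 4 motifs were not in this window as exact strings, whereas they occur in 12.4%, 33.8%, 6.74% and 32.6% of all regions in the order given. Variants were not searched, such as TATAAG near the end of the window, so a TATA-like box is not excluded.

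The vasopressin pathway upstream of Aqp2 was followed with a list of 24 genes, of which 22 were tested. Avpr2, the vasopressin receptor of the collecting duct, had no count on days 5, 7, 10, 12 and 14, at most 1 count in a library on day 0 and 6 counts in a single library on day 3. Avp, the gene of vasopressin itself, had no count on day 3 and between 4 and 13 counts per library on day 14. Between days 5 and 7, when Aqp2 rose, 2 of the 22 rose and 6 fell, where 13.9% of all genes were called higher and 14.6% lower, with a list median of -0.04 against 0.01 for all genes on the log2 scale. Creb5, a cyclic AMP response factor, rose by 0.42 on the log2 scale (SE 0.09, edgeR adjusted p = 0.00098), and Adcy3, an adenylyl cyclase, fell by 1.36 (SE 0.08, edgeR adjusted p = 4.3e-13). Between days 10 and 12, when Aqp2 fell, 3 rose and 8 fell, where 18.7% of all genes were higher and 20.7% lower, with Creb5 up by 1.25 and Adcy3 and Adcy6 down by 1.15 and 0.59. From day 3 to day 14 only 2 rose (Creb5, by 1.78, and Vamp2, a vesicle fusion protein) and 13 fell, where 34.2% of all genes were higher and 32.8% lower, and the list's median log2 change was -0.31 against 0.04 for all genes. Cell type markers moved over the same steps. Of the 6 brown adipocyte markers, 4 fell from day 5 to day 7 and 5 from day 10 to day 12, as Adcy3 did. All 6 macrophage, all 7 neutrophil and 4 of 7 endothelial markers also fell over the first of these steps. Over the other, all 7 neutrophil, 6 of 7 endothelial and 6 of 7 muscle markers fell. Going the other way, all 8 hair follicle markers rose over both steps, as did 6 and then 4 of 6 suprabasal markers. From day 3 to day 14 all 6 macrophage, all 7 neutrophil and all 7 endothelial markers fell, with median log2 changes of -2.91, -8.77 and -0.90. The part of these cells in the list's changes was not tested.

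The 7 markers of the renal collecting duct summed to only 2.63 to 2.77 CPM on day 0 and to at most 10.2 CPM on any day, and 4 of them could be tested, of which 2 rose between days 5 and 7. Avpr2 was at 0 from day 5 on, and of further defining genes of that tubule Slc14a2 was at 0 on days 0 and 3 and Calb1 on days 0, 3, 7 and 10. Atp6v1b1, a proton pump subunit also found in other epithelia, went from 0.0817 CPM on day 3 to 3.83 CPM on day 10. The other markers of the list that could be tested were also low but present on every day. Hsd11b2, a steroid dehydrogenase, went from 0.218 CPM on day 3 to 1.09 on day 7 and 1.63 on day 10, Fxyd4 had 0.551 to 2.28 CPM on the wound days, and Scnn1g, a sodium channel subunit, had 2.14 to 3.56 CPM. From day 3 to day 14, 3 of the 4 rose and none fell. The part of any epithelial cell type in the Aqp2 values was not tested. In bulk tissue, fewer cells of a type and less RNA per cell cannot be told apart, which holds for every gene here.

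The 5 matrix fibroblast markers (Col1a1, Col1a2, Dcn, Lum and Pdgfra) moved with Aqp5 over part of the time course and less closely with Aqp2. Their summed level was 10030 to 41250 CPM on day 0, 11760 to 13460 CPM on day 3 and 22850 to 24060 CPM on day 5. Day 7 had 33790 to 34660 CPM, day 10 had 31860 to 36940, day 12 had 25980 to 30390 and day 14 had 10290 to 12600. Over the 24 wound libraries log2 CPM of Aqp5 had r = 0.870 with this sum, and Aqp2 had r = 0.629. None of the 5 markers was at 0 on any day, and 1 of them rose between days 5 and 7 while all 5 fell between days 12 and 14. Between days 10 and 12, when Aqp5 and Aqp2 fell, none of the 5 was called in either direction (median log2 change -0.22), and from day 3 to day 14, when Aqp5 rose, 3 fell and none rose (median -0.78). The day 0 libraries spanned a wider range than all wound libraries together. The 6 measured markers of the suprabasal keratinocyte list had the next highest r with Aqp5, 0.756 over the wound libraries. Between days 5 and 7 all 6 of them and all 8 hair follicle markers rose, with median log2 changes of 0.54 and 6.33. Between days 10 and 12, when Aqp5 and Aqp2 fell, 4 of the 6 and all 8 rose and none fell. The part of these cell types in the Aqp5 and Aqp2 values was not tested.

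Aqp3, the glycerol and water channel of the basal epidermis, was highest on day 3. The day 0 libraries were split, with counts of 3204, 1590, 1525 and 2616. Cell type markers were split between the same libraries. In the order of the replicates, the basal keratinocyte markers summed to 6955, 3853, 3963 and 8098 CPM and the skeletal muscle markers to 36340, 21550, 21790 and 38450 CPM, high where Aqp3 was high, whereas the matrix fibroblast markers summed to 17750, 41250, 39830 and 10030 CPM. Their part in the day 0 values of Aqp3 was not tested. On day 3 the counts were 5089, 4135, 4358 and 4370, all above day 0. Day 5 had 2836, 2609, 2979 and 3041 counts, day 7 had 2178, 2599, 2251 and 2760, and day 10 had 1971, 2048, 1982 and 2148. Day 12 had 2189, 2378, 2033 and 2408 counts, and day 14 had 1628, 1526, 1542 and 1590. The day 14 libraries were near the 2 lower day 0 libraries in counts, overlapped with them in FPKM, and lay below all 4 in CPM, which uses the TMM factors of edgeR.

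In FPKM the level of Aqp3 went from 65.3 ± 6.11 (SD, n = 4) on day 3 to 22.9 ± 0.832 (n = 4) on day 14. Aqp3 fell by 0.69 on the log2 scale from day 3 to day 5 (SE 0.15, edgeR adjusted p = 0.0011) and by 0.45 from day 12 to day 14 (SE 0.15, edgeR adjusted p = 0.018), and by 1.69 over the whole interval from day 3 to day 14 (SE 0.16, edgeR adjusted p = 1.8e-10). The fall after day 12 had an adjusted p of 0.054 without day 12 replicate 4. From day 5 to day 7 and from day 7 to day 10 the log2 differences were -0.28 and -0.29, which did not pass the threshold. That fit takes its spread from all days together, and Aqp3 was split on day 0. With only the 8 libraries of the 2 days compared, both falls were called (edgeR adjusted p = 0.025 and 0.0019). The log2 differences of Aqp3 from day 0 were 1.05 on day 3 and -0.65 on day 14. Leaving out single libraries gave 0.90 to 1.32 for the first and -0.75 to -0.35 for the other.

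Aqp9, an aquaglyceroporin known from liver, neutrophils and macrophages, was likewise highest on day 3 and lowest on day 14. It had 257, 469, 490 and 231 counts on day 0 and 765, 619, 718 and 719 on day 3. Day 5 had 440, 358, 453 and 396 counts, and day 7 had 280, 296, 309 and 379. Day 10 had 126, 116, 111 and 153 counts, day 12 had 223, 280, 252 and 247, and day 14 had 96, 104, 123 and 131. Replicates 1 and 4 of day 0 were the lower ones here, whereas for Aqp3 they were the higher ones. Day 12 lay above day 10 and day 14 without overlap, and the day 10 and day 14 libraries overlapped.

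Aqp9 fell by 2.81 on the log2 scale from day 3 to day 14 (SE 0.18, edgeR adjusted p = 5.7e-14), the largest of the differences between wound days tested here for the 7 genes. It fell by 0.82 from day 3 to day 5 (SE 0.16, edgeR adjusted p = 0.00036) and by 1.35 from day 7 to day 10 (SE 0.17, edgeR adjusted p = 8e-07). It rose by 0.86 from day 10 to day 12 (SE 0.18, edgeR adjusted p = 0.00025) and fell by 1.07 from day 12 to day 14 (SE 0.18, edgeR adjusted p = 1.8e-05). The fall between days 5 and 7 was called at an adjusted p of 0.049 (edgeR, log2 difference -0.43), but the days overlapped, the exact permutation p was 0.0571, and the call was lost without any library of the 2 days except day 5 replicate 2 and day 7 replicate 4, with an adjusted p of up to 0.12. It was also lost with upper quartile scaling, library totals only, no filter, at least 10 counts in every library, 3 limma settings, the replicate block and the Xist covariate, with adjusted p from 0.052 to 0.14. The Xist covariate was nearly constant, so the loss with it says little. The annotated genes Gm47268 and Gm32511 overlap Aqp9, and whether the counting used strand is not given in the sources used here.

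Aqp3 and Aqp9 had r = 0.939 in log2 CPM over the 24 wound libraries, which share their days. Macrophage markers moved with both. The 6 markers (Adgre1, Cd68, Csf1r, Mrc1, Cd14 and C1qa) summed to 834 to 1228 CPM on day 0, and day 3 had 2470 to 2524 CPM, day 5 had 2308 to 2403 and day 7 had 1470 to 1562. Day 10 had 742 to 834 CPM, day 12 had 784 to 866 and day 14 had 287 to 320. None was at 0 on any day. Over the wound libraries r with this sum was 0.911 for Aqp9 and 0.889 for Aqp3, and with the sum of the neutrophil markers it was 0.817 and 0.884. From day 3 to day 5, when Aqp3 and Aqp9 fell, none of the 6 markers was called in either direction, and from day 10 to day 12, when Aqp9 rose, 2 rose and 2 fell. The 7 neutrophil markers summed to 4369 to 5514 CPM on day 3 and to 15.2 to 18.6 CPM on day 14, and 6 of 7 fell from day 3 to day 5. All 7 also fell from day 10 to day 12, when Aqp9 rose. Ly6g, which defines neutrophils, was at 0 on days 0 and 12. The basal keratinocyte markers summed to 3436 to 4288 CPM on day 3 and 4729 to 5921 CPM on day 14, so that between these days Aqp3 ran the other way, unlike in the day 0 libraries. The part of these cells in either gene was not tested.

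Aqp7, the aquaglyceroporin through which fat cells release glycerol, had 287, 574, 465 and 409 counts on day 0 and 701, 862, 912 and 859 on day 3. Day 5 had 1359, 1235, 1191 and 1433 counts, day 7 had 1222, 1287, 1276 and 1294, and day 10 had 1087, 1169, 1108 and 1115. Day 12 had 562, 583, 514 and 517 counts, followed by 1217, 1309, 1246 and 1155 on day 14. The day 12 libraries lay below those of all other wound days without overlap and overlapped with day 0.

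Aqp7 rose by 0.60 on the log2 scale from day 3 to day 5 (SE 0.11, edgeR adjusted p = 0.00019). It fell by 1.17 from day 10 to day 12 (SE 0.11, edgeR adjusted p = 3.3e-09) and rose by 1.25 from day 12 to day 14 (SE 0.11, edgeR adjusted p = 1.4e-09). These 2 calls held in each fit with 1 library left out. In FPKM the level was 8.73 ± 0.236 on day 10 (SD, n = 4), and days 12 and 14 had 4.13 ± 0.247 and 9.70 ± 0.476. The log2 differences of Aqp7 from day 0 were 1.00 to 1.60 for days 3, 5, 7, 10 and 14, and 0.13 for day 12.

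Genes of glycerol and triglyceride handling also turned at day 12. Of 14 tested, 11 fell and none rose from day 10 to day 12 (20.7% of all genes were lower), and 12 rose and none fell from day 12 to day 14 (19.9% of all genes were higher). The median log2 changes of the list were -0.51 and 0.63, against -0.02 and -0.04 for all genes tested. Gk, the glycerol kinase, fell by 1.38 (SE 0.10, edgeR adjusted p = 5.9e-12) and then rose by 1.75 (SE 0.10, edgeR adjusted p = 1.8e-13). Pck1, which feeds glycerol synthesis in fat, fell by 1.90 and rose by 1.84, and Lipe, the hormone-sensitive lipase, fell by 0.52 and rose by 0.70. From day 5 to day 7, 7 of the 14 fell and none rose (14.6% of all genes were lower and 13.9% higher), with Gk lower by 2.09 and Gpd1, a glycerol-3-phosphate dehydrogenase, lower by 1.13, while the log2 difference of Aqp7 was -0.09 with a 95% interval from -0.32 to 0.14. From day 3 to day 14, when Aqp7 rose by 0.38 (SE 0.11, edgeR adjusted p = 0.0036), 4 of the 14 rose, with Mgll, the monoglyceride lipase, up by 0.75, and 7 fell, with Gk lower by 1.38. Of all genes 34.2% were higher and 32.8% lower over that interval.

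Fat cell markers moved with Aqp7 at day 12, though not at every step. The 6 brown adipocyte markers (Ucp1, Cidea, Cox8b, Cox7a1, Elovl3 and Dio2) summed to 257 to 301 CPM on day 0, and day 3 had 1197 to 1557 CPM, day 5 had 2342 to 2723 and day 7 had 973 to 1174. Day 10 had 722 to 775 CPM, day 12 had 168 to 186 and day 14 had 864 to 1112. From day 10 to day 12, 5 of 6 fell, and all 6 rose to day 14. From day 5 to day 7, however, 4 of the 6 fell and none rose while Aqp7 was not called, and from day 3 to day 14, when Aqp7 rose, 5 fell and 1 rose. Of the 7 white adipocyte markers 6 fell and 1 rose from day 10 to day 12 and 7 rose to day 14, 3 rose and 1 fell from day 5 to day 7, and 5 rose and 1 fell from day 3 to day 14, and their sum was 3949 to 4270 CPM on day 12 against 6435 to 6802 on day 14. Over the 24 wound libraries r with Aqp7 was 0.861 for the brown and 0.814 for the white list. No marker of either list was at 0 on any day, and the part of fat cells in the Aqp7 values was not tested.

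Aqp4, a water channel of astrocyte end-feet and of fast muscle fibres, had its highest level on day 0. The day 0 libraries held 889, 1162, 1123 and 1406 counts, and those of day 3 held 56, 55, 74 and 75. Day 5 had 102, 104, 104 and 87 counts, and day 7 had 185, 166, 212 and 167. Day 10 had 387, 432, 532 and 390 counts, day 12 had 325, 340, 411 and 325, and day 14 had 221, 176, 179 and 215. No wound library reached the lowest day 0 library.

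Between wound days Aqp4 rose by 0.56 on the log2 scale from day 3 to day 5 (SE 0.17, edgeR adjusted p = 0.013), by 0.83 from day 5 to day 7 (SE 0.15, edgeR adjusted p = 0.00012) and by 1.23 from day 7 to day 10 (SE 0.14, edgeR adjusted p = 1.4e-07). It then fell by 0.44 to day 12 (SE 0.14, edgeR adjusted p = 0.011) and by 0.75 to day 14 (SE 0.14, edgeR adjusted p = 9.8e-05). The first of these calls was lost without day 3 replicate 1 or 2 (edgeR adjusted p = 0.066 and 0.070) and with limma on log2(FPKM + 1), which gave a log2 difference of 0.15 (limma adjusted p = 0.35, or 0.22 among genes with a mean of at least 1 FPKM). The fall to day 12 was lost without day 10 replicate 3 (edgeR adjusted p = 0.083) and with limma at pseudocounts of 1 and 0.1 (limma adjusted p = 0.079 and 0.086). The level of Aqp4 was 4.93 ± 1.07 FPKM (SD, n = 4) on day 0 and 0.277 ± 0.0465 FPKM on day 3. Its log2 difference from day 0 was -4.09 for day 3 and -1.47 for day 10. The annotated gene AC133525.2 overlaps Aqp4.

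The 7 skeletal muscle markers (Acta1, Ckm, Myh4, Mylpf, Tnnt3, Atp2a1 and Myh1) summed to 21550 to 38450 CPM on day 0 and 4692 to 6008 CPM on day 3. Days 5 and 7 had 5219 to 6053 CPM, day 10 had 10190 to 13100, day 12 had 7555 to 8652 and day 14 had 5486 to 6925. None was at 0 on any day, and r between this sum and Aqp4 was 0.897 over all 28 libraries and 0.814 over the 24 wound libraries. From day 7 to day 10, when Aqp4 rose, all 7 markers rose, and 6 and 5 of the 7 fell over the following steps. Between days 3 and 5 and between days 5 and 7, where Aqp4 also rose, none of the 7 markers was called. The 5 Schwann cell markers had r = 0.911 with Aqp4 over 28 libraries, with 534 to 929 CPM on day 0 and 140 to 149 CPM on day 3. The 6 sebaceous gland markers had the same r of 0.911, with 1304 to 1593 CPM on day 0 and 557 to 589 CPM on day 3. Over the 24 wound libraries r was 0.853 for Schwann cells, 0.840 for the low renal list, 0.783 for sebaceous gland and 0.746 for duct epithelium, so the muscle list was not alone. The part of these cells in the Aqp4 values was not tested.

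**Figure D4:**
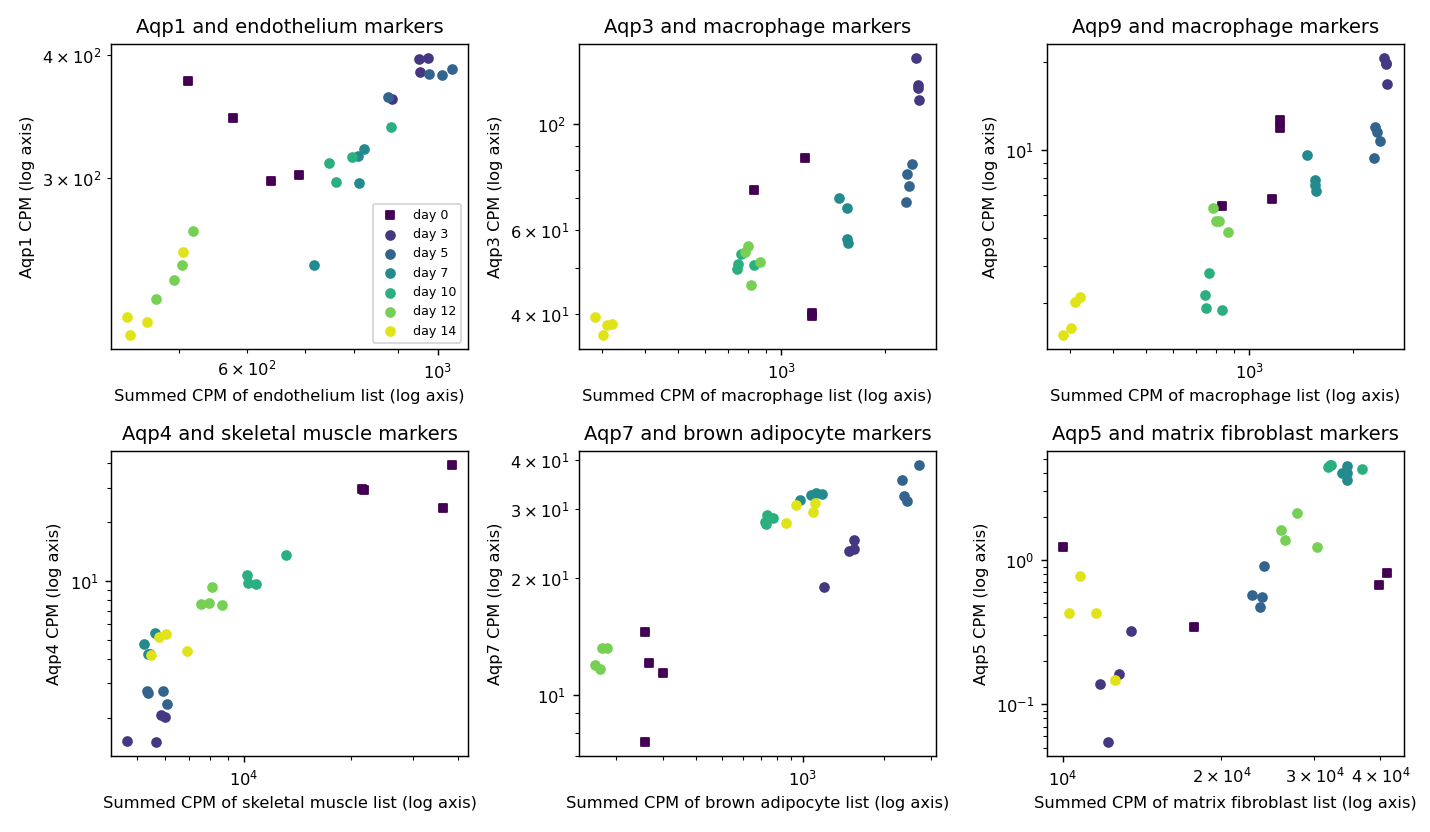
CPM of an aquaporin gene (y axis, log) against the summed CPM of a marker list (x axis, log) in each of the 28 libraries, coloured by day, with day 0 as squares. The 6 pairs were picked after the values were seen. Aqp4 and the muscle list were highest together on day 0, Aqp7 and the brown fat list were low together on days 0 and 12, and day 0 lay off the trend of the wound days for Aqp1 with endothelium and Aqp5 with fibroblasts.

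Aqp1, the water channel of capillary endothelium and red cells, was the most abundant of the 7 and had the smallest ratio between days. Day 0 had 13070, 11958, 11499 and 13525 counts, day 3 had 13377, 14575, 14052 and 14397, and day 5 had 14608, 14743, 14538 and 13392. Day 7 had 11483, 12530, 12392 and 9695 counts, and day 10 had 12500, 12001, 13220 and 12526. Day 12 had 10423, 9998, 10450 and 11493 counts, and day 14 had 8953, 8787, 10280 and 8948. Days 3 and 5 lay above days 12 and 14 without overlap, and neighbours in the order of daily means overlapped throughout.

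The mean level of Aqp1 was 131 ± 4.84 FPKM (SD, n = 4) on day 3 and 86.0 ± 5.38 FPKM on day 14, and the highest daily mean was 1.52 times the lowest. Aqp1 fell by 0.36 on the log2 scale from day 5 to day 7 (SE 0.08, edgeR adjusted p = 0.00096) and by 0.37 from day 10 to day 12 (SE 0.08, edgeR adjusted p = 0.00045). Over the whole interval from day 3 to day 14 it fell by 0.79 (SE 0.08, edgeR adjusted p = 1.5e-09). The 7 endothelial markers (Pecam1, Cdh5, Kdr, Vwf, Emcn, Tie1 and Tek) summed to 885 to 974 CPM on day 3 and 435 to 505 CPM on day 14, and all 7 fell over that interval. They had r = 0.957 with Aqp1 over the wound libraries, and the neutrophil, erythroid and macrophage lists had 0.912, 0.857 and 0.853. On day 0 the endothelial sum was 513 to 690 CPM, below that of day 7, while Aqp1 overlapped with day 7. The 7 erythroid markers summed to 1257 to 1567 CPM on day 3 and 198 to 279 CPM on day 14, and 6 of 7 fell and 1 rose. No endothelial or erythroid marker was at 0 on any day. The part of vessels and red cells in the Aqp1 values was not tested.

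Among the other aquaporin genes, Aqp6 had 1 count, Aqp8 had 23 and Aqp12 had 13 over all 28 libraries, too few for the filter. The name Mip was not among the genes of the deposited counts, so it was not analysed. Aqp11, an aquaporin of intracellular membranes, had 24 to 31 counts per library on day 3 and 61 to 64 on day 5, and rose by 1.12 on the log2 scale between them (SE 0.20, edgeR adjusted p = 0.00013). Aqp6, which follows Aqp5 on chromosome 15 after 6570 bases, thus had almost no reads on the days when Aqp2 and Aqp5 were high.

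The genes whose log2 CPM was most alike to each aquaporin over the 28 libraries were ranked by Pearson's r among 14678 genes with a mean of at least 1 CPM, as a description of libraries that share their days. The value over the 24 wound libraries stands second for each gene. Aqp2 was followed most closely by C430049B03Rik (r = 0.893 and 0.841), Cdc16 (0.851 and 0.792) and Pxylp1 (0.843 and 0.750). Nearest to Aqp5 were Itm2a (r = 0.935 and 0.956), Piezo2 (0.931 and 0.939) and Col6a5 (0.925 and 0.933). Nearest to Aqp4 were Cuedc1 (r = 0.982 and 0.966), Casq1 (0.973 and 0.961) and Pvalb (0.973 and 0.958), of which Casq1 and Pvalb encode calcium-binding proteins of muscle fibres. Nearest to Aqp7 were Prkar2b (r = 0.968 and 0.957), a regulatory subunit of the cyclic AMP-dependent kinase, Lncbate10 (0.943 and 0.936) and Poln (0.940 and 0.900). Aqp3 was nearest to Cd72 (r = 0.955 and 0.950), Irf5 (0.949 and 0.961) and Ly6c2 (0.944 and 0.939). Aqp9 was nearest to Kmo (r = 0.974 and 0.978), Rarres2 (0.973 and 0.974) and Dok2 (0.972 and 0.976). Aqp1 was nearest to Parvb (r = 0.950 and 0.958), Tmem189 (0.942 and 0.943) and Sh2b3 (0.931 and 0.944).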

How the data were processed

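Total RNA was sequenced in 28 mouse libraries, 4 a day, of which 4 are the day 0 control and 24 are from wound days. Per the labels, the authors trimmed reads with fastp, used R 3.2.0 and build mm10; the aligner, the counting tool and its use of strand are not given in the sources used here. The authors deposited whole-number counts per gene symbol and FPKM values, and each FPKM equalled the count divided by a constant gene length and the library total (largest relative spread 4.99e-06). Libraries held 36706513 to 40655764 counts (median 39499595), so a gene with few counts, such as Aqp2, is limited by counting error.

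Counts were analysed with edgeR 4.0.16 in R 4.3.3: filterByExpr, which kept 18107 of 29068 genes (347 had no count), TMM factors, and the quasi-likelihood test on all 28 libraries (21 residual degrees of freedom), with Benjamini-Hochberg adjustment over all genes tested and a threshold of 0.05. Log2 CPM used a prior count of 2. Named genes were all members, the other mouse aquaporins, the called genes of each list with the highest and lowest log2 fold change of day 14 against day 3, the 3 genes most alike to each member by r, and the neighbours of Aqp2. Other list genes were named after their values were seen. A list gene that this rule would name is not reported here. The members and the lists (vasopressin and trafficking, glycerol and triglyceride, osmotic stress, tight junction, cell type markers) were chosen with earlier results of these data known. Differences from day 0 chose the members, so no p and no count of calls is given for them.

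Alternatives were DESeq2 1.42.0, limma 3.58.1 on log2(FPKM + 1) and log2(FPKM + 0.1), other scalings and filters, the 8 libraries of the days compared, a replicate block, Xist as a covariate (at most 0.29 CPM in any library, so nearly constant) and each library left out. The test code was tested on simulated counts. Libraries of a day differed by more than sampling noise (lowest median chi-square 1.48), so all were kept as separate. Transcripts and positions came from GENCODE on GRCm38, which is the same assembly as mm10, and start regions from RefSeq. No protein table was used.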

Additional observations from a re-analysis of the deposited data

Results flagged for a closer look

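Of 49 groups of 4 libraries (7 genes on 7 days), 1 had a library that stood apart from the others, where chance gives about 2.4. In Aqp4 on day 12, replicate 3 had a log2 CPM of 3.23 and the other 3 libraries had 2.92 to 2.95, a gap of 0.88 of the range of the day. The calls of Aqp4 on both sides of day 12 held without it.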

How the results depend on the processing

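The counts of called genes are out of 7 and stand beside the percentage of all genes called under the same setting. Requiring an absolute log2 fold change over 1.5 with an unadjusted p under 0.05 left 1 call for day 5 against 3 (2.91%), 1 for day 7 against 5 (3.66%), 0 for day 10 against 7 (4.61%), 0 for day 12 against 10 (6.01%), 1 for day 14 against 12 (3.57%) and 2 for day 14 against 3 (18.6%). By the adjusted p of edgeR the counts with 0 here were 2 and 6. For day 7 against 5, which had 5 calls (28.5%), requiring at least 10 counts in every library left 2 (32.1%, Aqp2 and Aqp5 were not tested, and Aqp9 had an edgeR adjusted p of 0.052), limma with a mean FPKM of at least 1 gave 3 (34.8%, Aqp2 was not tested), and leaving out single libraries gave 3 to 4 (24.9% to 27.5%). With only the 8 libraries of both days it had 6 (30.8%), with Aqp3 added. In the same way day 10 against 7 had 4 calls, with Aqp3 and Aqp7 added, and the share of all genes rose from 32.3% to 43.3%. With limma on log2(FPKM + 1) that comparison had 3 calls (20.4%), with Aqp2 added (limma adjusted p = 0.024). Against day 0 no calls are counted. The median log2 difference of the 7 genes from day 0 on day 3, 0.998, was 0.167 with limma on log2(FPKM + 1) and 0.47 with a mean FPKM of at least 1, which leaves 6 genes. The joint test called all 7 with each library left out.

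Between wound days, signs turned only in differences that were not called. Day 5 against 3 of Aqp1 became 0.0107 with upper quartile scaling, and day 12 against 10 of Aqp3 became -0.0173, with -0.0208 to 0.0677 when single libraries were left out. Day 14 against 12 of Aqp2 ran from -0.382 to 0.229 with single libraries left out. Day 14 against 3 of Aqp2 ran from -0.397 to 0.472 in this way, and was 0.0782 with upper quartile scaling, 0.124 with library totals only, and 0.021 and 0.172 with limma at pseudocounts of 1 and 0.1. The cause was not tested.

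Replicate numbers did not pair the libraries (correlation of deviations from -0.0762 to 0.177 over 84 pairs with the same number). With the replicate number as a block, day 7 against 5 had 4 calls (Aqp9 was lost), the other wound comparisons had 5, 2, 6, 5 and 6 in order of time, with 23.9% to 66.9% of all genes called, and day 14 against 3 of Aqp2 was 0.0382. Between wound days, of the single-gene values 473 with a library left out and 539 under other settings kept direction and side of the threshold, 24 and 16 lost the call, and 0 and 4 gained one. Against day 0, 6 and 31 values moved by more than the replicate SD. The 3 genes most alike to each member depended on the measure, since Spearman's rank correlation kept 1 to 3 of them and the 24 wound libraries 0 to 2. Depth limits Aqp2, with at most 45 counts in a library.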

Other observations

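Genes of the water barrier and of the osmotic response were followed beside the aquaporins. Of 7 tight junction and adhesion genes, 6 rose and none fell from day 3 to day 14, with a median log2 change of 1.72 against 0.04 for all genes, of which 34.2% were called higher. Markers of epithelial cells moved with them, since 8 of 8 hair follicle, 5 of 6 suprabasal and 4 of 6 basal keratinocyte markers rose and none fell, with median log2 changes of 9.07, 0.55 and 0.70, and their part in the list's change was not tested. The largest rise was that of Cldn7, by 2.76 on the log2 scale (SE 0.54, edgeR adjusted p = 6.3e-05), and the smallest that of Cdh1, which encodes E-cadherin, by 1.08. Cldn7 was low, with 2 to 10 counts per library on day 3 and 29 to 48 on day 14. Cldn1, the main claudin of the epidermal barrier, rose by 1.64 on the log2 scale (SE 0.07, edgeR adjusted p = 1.8e-18), and Ocln, which encodes occludin, by 1.72 (SE 0.10, edgeR adjusted p = 1e-14). From day 10 to day 12, 5 of the 7 rose and none fell (18.7% of all genes were higher), in the same interval in which 5 of the 7 aquaporins fell (20.7% of all genes were lower). Over it 8 of 8 hair follicle and 4 of 6 suprabasal markers rose and none fell, with medians of 4.14 and 0.79, while 2 of 6 basal markers rose and 1 fell. Cldn4 rose by 2.09 and Cdh1 by 0.70.

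Of 8 osmotic stress genes, none rose and 4 fell from day 3 to day 14, with a median log2 change of -0.18 against 0.04 for all genes, of which 34.2% were called higher and 32.8% lower. Slc6a12, the betaine transporter, fell by 1.77 (SE 0.33, edgeR adjusted p = 2.9e-05), and Nfat5, the transcription factor of the osmotic response, by 0.32 (SE 0.13, edgeR adjusted p = 0.038). Over the interval from day 3 to day 14 all 6 macrophage, all 7 neutrophil and all 7 endothelial markers and 3 of 5 matrix fibroblast markers also fell, and their part in the list's change was not tested. None of the 8 was called between days 5 and 7, when Aqp2 and Aqp5 rose.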
